A study of Mus musculus with 11 samples.

Results

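Imprinted genes were followed in fetal germ cells and in their gonadal neighbours on 11 Illumina bead arrays of mouse RNA. The set held 45 genes of the classical imprinted domains, chosen by symbol: 22 expressed from the paternal copy, 22 from the maternal copy, and Gnas, which gives different transcripts from each. A gene counted as measured when 2 or more of the 11 arrays gave 1 of its probes a detection p-value below 0.01, as was true of 38 of the 45 genes, among 11598 genes in all. These were 20 paternally expressed genes, 17 maternally expressed genes and Gnas, with 66 kept probes out of 95 named for the listed genes. H19, Mirg, Snrpn, Slc22a3 and Zrsr1 were not analysed here, and Ascl2 and Kcnq1 had named probes but none that passed. Rtl1 and Nnat passed the detection filter through the 2 non-germ arrays alone and Rasgrf1 through 2 E15.5 arrays alone. The differences of these 3 are therefore given as descriptions. Beyond the 2 non-germ arrays, E15.5 replicate 2 alone detected Meg3, Rian, Osbpl5 and Plagl1, which thus passed only with the non-germ arrays. Their differences from non-germ cells are likewise given as descriptions. Detection on all 11 arrays was found for 21 genes.

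Germ cells had been sorted from gonads as the cells bright for green fluorescent protein of a Pou5f1-GFP reporter, which follows a pluripotency gene active in fetal germ cells. Germ cells of the embryonic stage E11.5, labelled as male and female together, were hybridized to 3 arrays, those of E13.5 males to 3 and those of E15.5 males to 3. The reporter-negative cells of E13.5 male gonads, called non-germ cells here, were measured on 2 arrays. All 4 groups carried the reporter and came from crosses of (CBA/CaJ X C57BL/6J)F16+ mice with Hsd:ICR(CD-1) mice. The labels call the arrays biological replicates and do not say how many embryos each pooled. The p-values measure the spread between these arrays. In contrasts with E11.5, stage and the mixed sex of that group cannot be told apart.

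An imprinted gene is expressed mainly from the copy inherited from one parent, because DNA methylation laid down in the germ line of one sex marks a control region of its domain. Migrating and newly settled fetal germ cells erase these marks, and the male germ line starts to write its own, such as those near H19, Meg3 and Rasgrf1, later in fetal life. Many imprinted genes act on fetal and placental growth, with paternally expressed growth promoters such as Igf2 and maternally expressed restrainers such as Cdkn1c, Phlda2 and Grb10. Several of the listed genes are known to be imprinted only in placenta or brain, among them Cd81, Tssc4, Osbpl5, Ppp1r9a, Asb4 and Ube3a. The arrays measure the RNA of both copies together, so no value below says which copy was active.

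Promoter windows of 300 bases around annotated transcription starts (RefSeq, mouse build GRCm38.p6) were found for 37 of the 45 genes, in 57 windows. The members' windows had a median of 15 CpG dinucleotides, against 7 over all 32851 windows of the table. The hexamer TGCCGC, which in its methylated form is the known target of the imprint-keeping protein ZFP57, was searched on both strands. It occurred in 13 of the 57 members' windows (22.8%) and in 11.6% of all windows, and a match is a description of the letters, not a binding site. The 13 windows belong to 12 genes, since overlapping windows of Mest hold the same matches. The hexamer contains a CpG, and whether its share exceeds that of equally CpG-rich windows was not tested. Peg3 and Usp29 are shown first because they are transcribed away from each other from starts so close that their windows share 263 bases, given in capitals, yet their RNA levels moved differently.
Peg3, chr7:6730370-6730669, minus strand: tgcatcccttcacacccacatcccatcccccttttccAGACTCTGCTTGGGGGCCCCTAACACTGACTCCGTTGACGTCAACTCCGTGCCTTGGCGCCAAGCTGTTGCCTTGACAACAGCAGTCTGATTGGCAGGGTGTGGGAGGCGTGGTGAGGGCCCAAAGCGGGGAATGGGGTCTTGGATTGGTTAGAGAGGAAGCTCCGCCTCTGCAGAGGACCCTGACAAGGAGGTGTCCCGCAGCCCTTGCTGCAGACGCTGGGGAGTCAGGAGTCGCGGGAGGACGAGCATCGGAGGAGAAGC
Usp29, chr7:6730333-6730632, plus strand: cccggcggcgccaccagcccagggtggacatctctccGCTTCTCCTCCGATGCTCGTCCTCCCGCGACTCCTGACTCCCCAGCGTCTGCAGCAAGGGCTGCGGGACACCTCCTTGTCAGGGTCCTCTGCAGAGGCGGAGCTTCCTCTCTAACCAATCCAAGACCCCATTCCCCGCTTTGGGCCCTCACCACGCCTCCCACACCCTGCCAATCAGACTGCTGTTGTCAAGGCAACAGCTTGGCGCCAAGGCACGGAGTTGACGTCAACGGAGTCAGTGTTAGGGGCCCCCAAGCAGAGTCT
Grb10 is shown because its RNA fell and rose by large steps, and Mest because its window held 2 hexamers. Capitals mark TGCCGC or its reverse complement. All 4 windows were picked after the expression values were seen.
Grb10, chr11:12037371-12037670, minus strand: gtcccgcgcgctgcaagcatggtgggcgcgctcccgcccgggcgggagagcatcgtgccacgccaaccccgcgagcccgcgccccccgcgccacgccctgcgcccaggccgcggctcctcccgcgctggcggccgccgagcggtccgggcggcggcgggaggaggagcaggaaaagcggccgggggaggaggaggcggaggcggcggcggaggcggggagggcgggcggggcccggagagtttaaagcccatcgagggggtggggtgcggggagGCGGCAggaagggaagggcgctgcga
Mest, chr6:30737800-30738099, plus strand: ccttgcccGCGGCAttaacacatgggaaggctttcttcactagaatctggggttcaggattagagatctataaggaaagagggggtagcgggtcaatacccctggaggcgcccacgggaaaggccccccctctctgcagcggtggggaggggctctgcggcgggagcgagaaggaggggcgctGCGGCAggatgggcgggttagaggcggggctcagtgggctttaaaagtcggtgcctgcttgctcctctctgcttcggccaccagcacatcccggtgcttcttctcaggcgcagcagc

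The sorted fractions carried the RNA that their labels call for, with 1 array standing apart. In the following, a level is a normalized log2 intensity, given for replicates 1, 2 and 3 in that order, and a difference is a difference of group means on the same log2 scale, ± the standard error of the fit. Levels of Pou5f1 were 11.10, 11.12 and 10.93 (E11.5), 10.77, 10.54 and 10.71 (E13.5), 10.50, 10.10 and 10.66 (E15.5) and 5.07 and 4.70 (non-germ), and those of the germ cell RNA helicase Ddx4 were 11.31, 11.38 and 11.22 (E11.5), 12.62, 12.27 and 12.42 (E13.5), 12.74, 12.50 and 12.70 (E15.5) and 5.33 and 5.36 (non-germ). The 6 germ cell markers averaged log2 levels of 11.01 to 11.60 on germ cell arrays and 5.28 to 5.41 on non-germ arrays. E15.5 replicate 2 correlated with the other E15.5 arrays at r = 0.912 and 0.926, against 0.972 between those 2. Over 9 interstitial cell markers, the mean log2 level was 9.91 on that array, 6.38 to 6.46 on the other E15.5 arrays and 10.79 on both non-germ arrays. It was 5.60 to 6.00 at E13.5 and 5.63 to 6.34 at E11.5, where replicate 1 was the highest. All 9 were detected on E15.5 replicate 2, and 3 to 4 on the other 2. Among them, the collagen Col3a1 had log2 levels of 6.08, 12.46 and 6.38 at E15.5. The main counts that rest on E15.5 are therefore given with and without this array, as are many of the single-gene results. Bulk levels cannot tell fewer cells of a type from less RNA in each cell.

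Markers of other cell types also differed between the remaining arrays of the stages. Over 7 Sertoli cell markers, the mean log2 level ran from 6.16 to 6.29 at E11.5, from 5.63 to 6.35 at E13.5 and from 6.31 to 6.79 on E15.5 replicates 1 and 3. It ran from 8.58 to 9.18 in non-germ cells and was 8.49 on E15.5 replicate 2. Sox9, the Sertoli cell factor, had log2 levels of 7.003, 5.86 and 5.79 (E11.5), 5.003, 6.54 and 8.36 (E13.5), 9.86, 11.97 and 10.53 (E15.5) and 11.23 and 12.23 (non-germ). Its course was not that of the whole list. Without E15.5 replicate 2, just 1 of the 7 Sertoli markers was called higher at E15.5 than at E13.5 (22.4% of all genes). On E15.5 replicates 1 and 3, Gata4 had log2 levels of 5.04 and 5.29 and Nr5a1 of 5.28 and 5.21. Hba-a1, an alpha globin of red blood cells, had log2 levels of 5.15, 5.02 and 5.26 at E13.5 and 7.60, 12.42 and 7.47 at E15.5, against 13.92 and 11.87 in non-germ cells. The globins Hba-x (5.02, 5.02 and 4.91 at E15.5) and Hbb-y (5.27, 5.32 and 5.36) showed no such rise. Over 4 erythroid markers, the mean log2 level ran from 5.09 to 5.15 at E13.5 and from 5.79 to 6.04 on E15.5 replicates 1 and 3. It was 7.68 on replicate 2 and ran from 8.91 to 11.95 in non-germ cells. The 5 fetal Leydig cell markers averaged 6.54 to 6.83 at E11.5, 6.10 to 6.17 at E13.5, 6.03 to 6.52 on E15.5 replicates 1 and 3, 9.27 on E15.5 replicate 2 and 6.96 to 8.57 in non-germ cells, again as log2 levels. The 7 endothelial markers averaged log2 levels of 5.21 to 5.28 at E11.5, 4.89 to 5.09 at E13.5, 5.29 to 5.57 on E15.5 replicates 1 and 3, 6.42 on replicate 2 and 6.85 to 7.46 in non-germ cells. The part of these cells in the changes below was not tested.

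**Figure D1:**
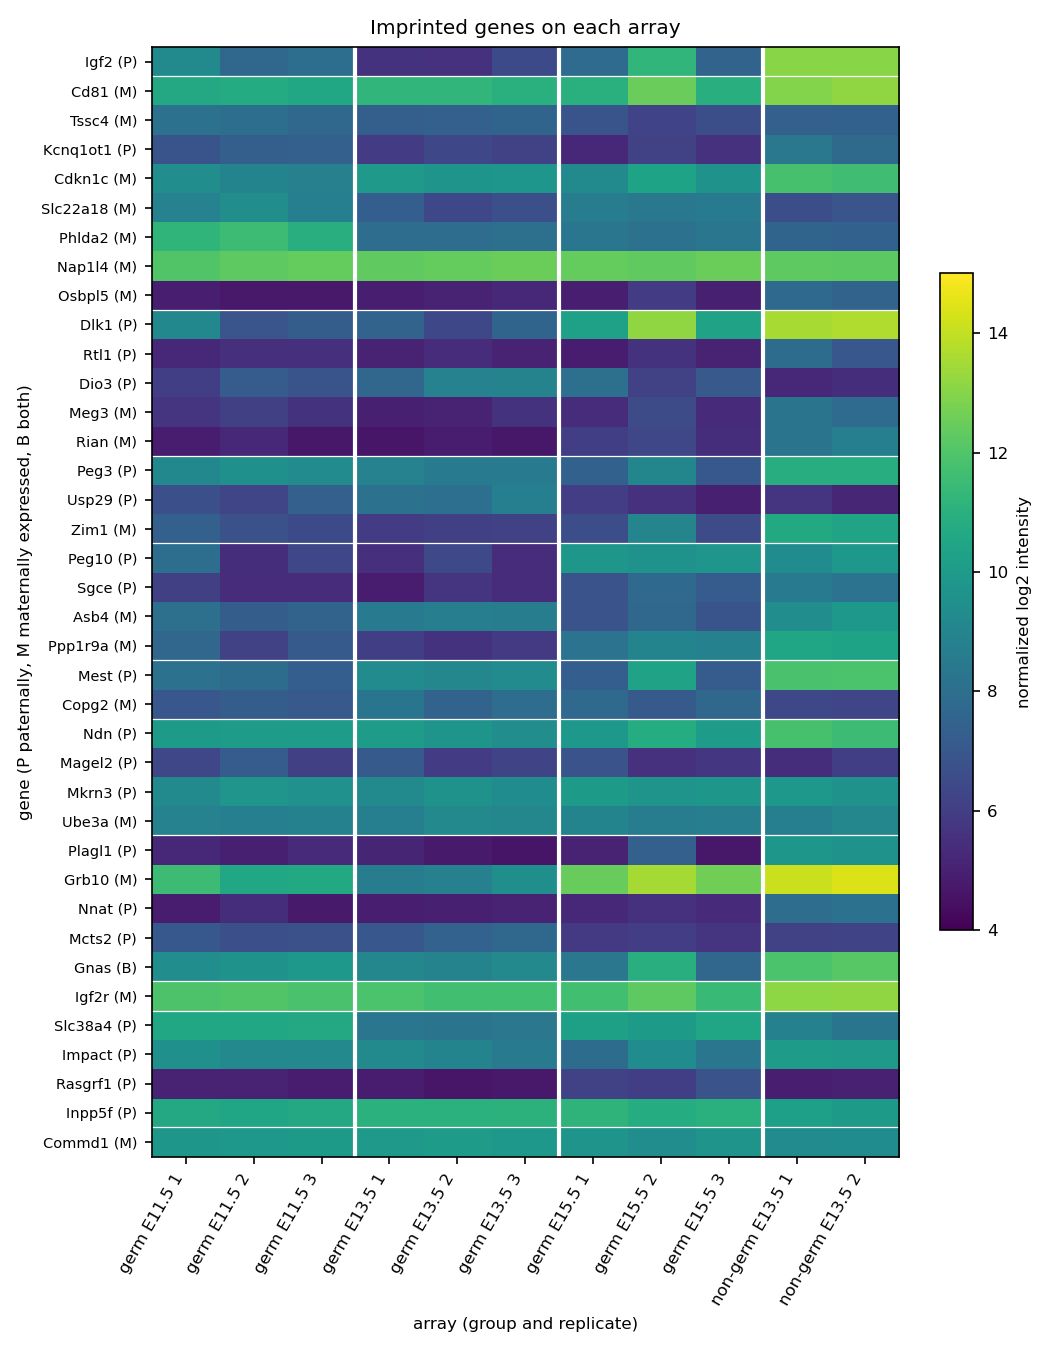
Normalized log2 intensity (colour) of the 38 measured imprinted genes (rows, grouped by domain, with P for paternally, M for maternally and B for both) on the 11 arrays (columns, grouped by stage and fraction). Most rows are brightest in the 2 non-germ columns, and E15.5 replicate 2 is brighter than its 2 neighbours in rows such as Igf2, Dlk1, Mest and Gnas.

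Most measured imprinted genes had less RNA in E13.5 germ cells than in the non-germ cells of the same gonads. Of the 38 genes, 23 were lower in germ cells (26.2% of all 11598 genes were lower), 6 were higher (30.8% of all genes) and 9 did not pass the test, at a Benjamini-Hochberg adjusted p below 0.05 in limma. The groups did not overlap for 32 of the 38 genes, where 74.5% of all genes had groups that did not overlap. The median log2 difference was -1.92 over the 38 genes and 0.12 over all genes. With the genes undetected in one fraction set at their lower bound, or at no difference where no bound could be given, the median of the 38 was -1.43. Both classes lay in the same direction, with 12 of 20 paternally and 10 of 17 maternally expressed genes lower. The counts were 6 higher (32.4% of all genes) and 23 lower (27.8% of all genes) without E15.5 replicate 2, which enters this contrast through the pooled spread and the normalization.

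Among genes detected in both fractions, Igf2 (log2 difference -7.18 ± 0.92), Dlk1 (-6.51 ± 0.86) and Grb10 (-5.32 ± 0.39) showed the largest fitted gaps, though just 1 of 3 E13.5 germ cell arrays detected Igf2. Meg3, Nnat, Osbpl5, Plagl1, Ppp1r9a, Rian, Rtl1 and Sgce were detected on both non-germ arrays and on no E13.5 germ cell array, so their folds are lower bounds. Those bounds ran from at least 2.4-fold for Rtl1 to at least 19.4-fold for Ppp1r9a. With detection required on at least 3 arrays, which leaves out Rtl1 and Nnat, 21 genes were lower (2770 of 10755 genes in all). Meg3, Rian, Osbpl5 and Plagl1 met that rule only because E15.5 replicate 2 was added to the non-germ arrays. The reverse pattern, detection in E13.5 germ cells and on no non-germ array, was seen for Usp29 and Dio3. Among the 27 genes detected on at least 1 array of both fractions, 15 were lower in germ cells, 4 were higher and 8 did not pass. The shares of all genes under that condition were not computed.

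**Figure D2:**
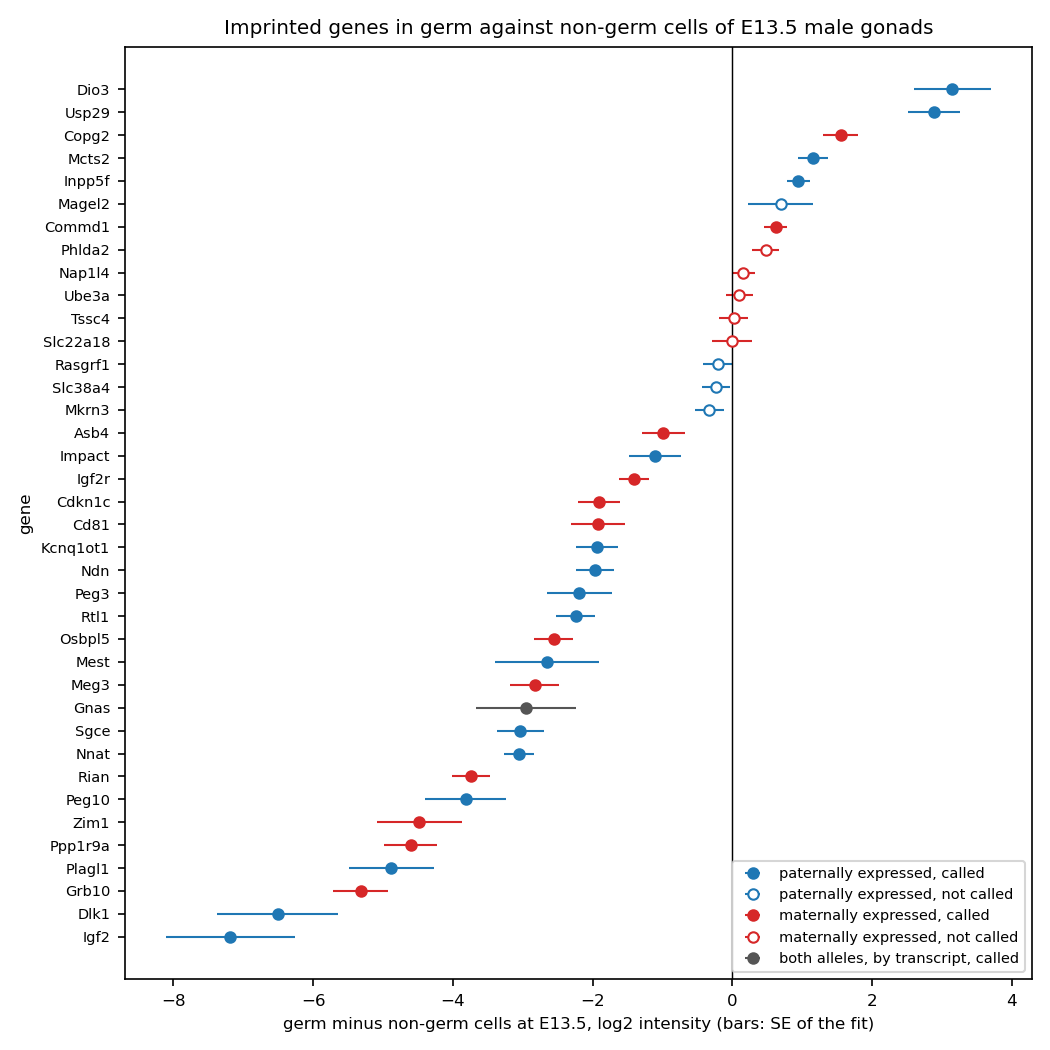
Difference between germ and non-germ cells at E13.5 (horizontal axis, log2 intensity, bars are the standard error of the fit) for each of the 38 genes, coloured by the expressed copy, with filled points for genes past the test. Igf2 and Dlk1 lie furthest to the left and Dio3 and Usp29 furthest to the right. Genes undetected in one fraction are drawn at the fitted difference, which is not a bound.

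Between E11.5 and E13.5, 5 of the 38 genes rose (10.8% of all genes rose) and 6 fell (7.94% of all genes fell), while 27 did not pass. Among the genes that passed, Phlda2, Slc38a4, Slc22a18 and Grb10 had the largest falls and Dio3 and Usp29 the largest rises. The groups did not overlap for 22 genes, against 40.8% of all genes. The median log2 difference was -0.23 over the 38 genes and 0.01 over all genes, and 0.00 over the 38 with undetected genes set at their bound or at no difference. Without E15.5 replicate 2, there were 8 rises and 10 falls, where 13.4% and 10.9% of all genes rose and fell. The genes added were Cd81, Cdkn1c and Mest among the rises and Igf2, Peg3, Tssc4 and Zim1 among the falls.

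Between E13.5 and E15.5, 10 genes rose (21.2% of all genes rose) and 5 fell (21.4% of all genes fell), and 23 did not pass. The rises were those of Dlk1, Peg10, Grb10, Igf2, Ppp1r9a, Sgce, Slc38a4, Slc22a18, Rasgrf1 and Rian. All 10 were called without E15.5 replicate 2 as well (22.4% of all genes rose then). Rasgrf1 passed the filter through E15.5 arrays alone, so its rise is a description. Without that replicate no germ cell array detected Rian, so its call there compares levels below the detection line. With detection required on at least 3 arrays, which leaves out Rasgrf1, there were 9 rises (2338 of 10755 genes in all). The falls were those of Usp29, Mcts2, Asb4, Dio3 and Tssc4. Without E15.5 replicate 2 there were 9 falls (21.8% of all genes fell then): Dio3 no longer passed, and Mest, Peg3, Gnas, Impact and Kcnq1ot1 did, the last with no remaining E15.5 array detecting it. The groups did not overlap for 19 genes, against 51.1% of all genes, and the median log2 difference was 0.13 over the 38 genes and 0.02 over all genes. With undetected genes set at their bound or at no difference that median was 0.00, and it was -0.04 without E15.5 replicate 2.

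Over the whole span from E11.5 to E15.5, 9 genes were higher (25.7% of all genes) and 6 lower (24.2% of all genes), with 18 not overlapping against 55.4% of all genes. Without E15.5 replicate 2 there were 9 of each, where 26.7% and 24.8% of all genes were higher and lower. The median log2 difference over the 38 genes was 0.27 with all arrays and -0.21 without that array, against 0.03 and 0.01 over all genes. Across the 3 germ cell contrasts, 17 of the 38 genes passed in none. The share of all genes that passed in none was not computed, so this count is a description. It also depends on E15.5 replicate 2: without that array Cd81, Gnas, Impact, Mest and Zim1, all among these 17, passed in 1 or more of the 3 contrasts. These contrasts share arrays with each other, and the E13.5 germ cell arrays also enter the contrast with non-germ cells.

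E15.5 replicate 2 lay towards the non-germ cells for most genes. Of the 23 genes lower in germ cells than in non-germ cells, this array was the highest of the 3 E15.5 arrays for 22, the exception being Peg10. Of the other 15 genes it was the highest for 1, Mcts2, and the lowest for 13. It stood more than 1 log2 unit above the mean of its 2 neighbours for Igf2, Cd81, Dlk1, Meg3, Peg3, Zim1, Mest, Plagl1, Gnas and Impact.

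**Figure D3:**
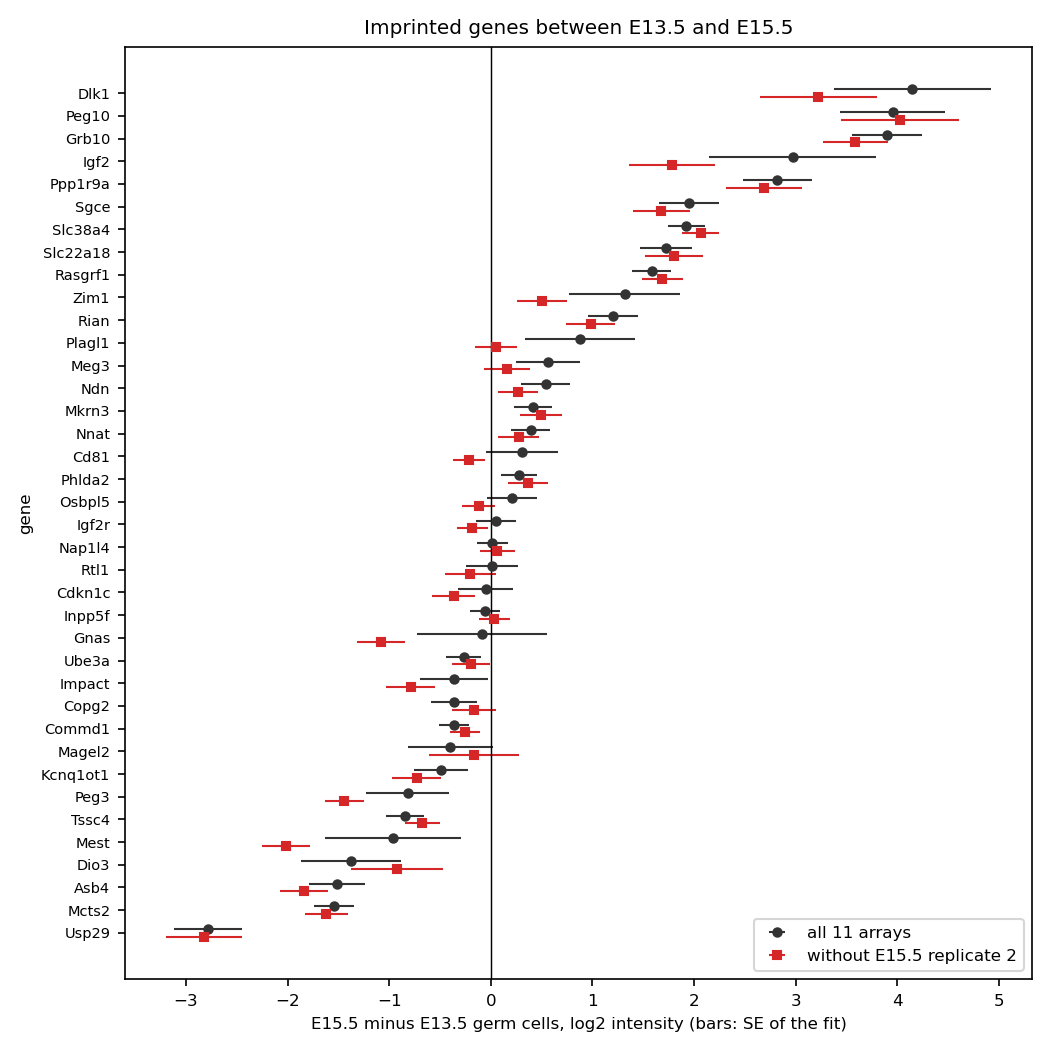
Difference between E15.5 and E13.5 germ cells (horizontal axis, log2 intensity, bars are the standard error of the fit) for each of the 38 genes, from all 11 arrays (dark circles) and without E15.5 replicate 2 (red squares). The points nearly coincide for genes such as Peg10, Slc38a4 and Usp29 and lie apart for Igf2, Dlk1, Mest, Peg3 and Gnas, which are lower without that array.

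Igf2, the paternally expressed fetal growth factor, had log2 levels of 9.27, 7.66 and 7.99 (E11.5), 5.60, 5.59 and 6.45 (E13.5), 7.83, 11.23 and 7.50 (E15.5) and 13.06 and 13.07 (non-germ). It was low at E13.5, where 1 of 3 arrays detected it, and E15.5 replicate 2 was far above its neighbours, while both non-germ arrays were above every germ cell array. The fitted difference from non-germ cells (log2 difference -7.18 ± 0.92, adjusted p = 8.94e-05) thus rests partly on E13.5 levels that were not above background. The rise from E13.5 to E15.5 passed with all arrays (log2 difference 2.97 ± 0.82, adjusted p = 0.0141) and, at a smaller size, without E15.5 replicate 2 (log2 difference 1.78 ± 0.42, adjusted p = 0.00628). The step down from E11.5 to E13.5, with groups that did not overlap, did not pass with all arrays (log2 difference -2.43 ± 0.82, adjusted p = 0.0651) and passed without that array (log2 difference -2.44 ± 0.38, adjusted p = 0.00108). That step was smaller and did not pass without E11.5 replicate 1, the highest E11.5 array for Igf2 (log2 difference -1.95 ± 0.90, adjusted p = 0.205). Igf2r, the maternally expressed receptor that carries IGF2 to lysosomes, had log2 levels of 11.93, 12.04 and 11.86 (E11.5), 11.87, 11.67 and 11.68 (E13.5), 11.67, 12.26 and 11.45 (E15.5) and 13.13 and 13.17 (non-germ). It was high on all arrays, lower in germ cells than in non-germ cells with no overlap (log2 difference -1.41 ± 0.22, adjusted p = 0.00034), and passed in no germ cell contrast. A dimmer probe of Igf2r did not pass between the fractions (log2 difference -0.82, adjusted p = 0.177).

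Grb10, an adaptor protein that dampens insulin and IGF receptor signalling, fell and then rose. Its log2 levels were 11.54, 10.59 and 10.70 (E11.5), 8.61, 8.77 and 9.50 (E13.5), 12.45, 13.51 and 12.62 (E15.5) and 14.14 and 14.43 (non-germ). The 3 stages did not overlap: E13.5 was the lowest and E15.5 the highest on every array, and both non-germ arrays were higher still. The fall from E11.5 to E13.5 (log2 difference -1.98 ± 0.35, adjusted p = 0.00275) and the rise to E15.5 (log2 difference 3.90 ± 0.35, adjusted p = 1.83e-05) passed, the latter also without E15.5 replicate 2 (log2 difference 3.59 ± 0.32, adjusted p = 1.65e-05). Against non-germ cells, E13.5 germ cells were lower (log2 difference -5.32 ± 0.39, adjusted p = 2.73e-06). A second, dimmer probe of Grb10 had differences of the same sign in all 4 contrasts, of which that from E11.5 to E13.5 did not pass (log2 difference -0.80, adjusted p = 0.0801). Plagl1, a paternally expressed zinc finger factor, had log2 levels of 5.23, 4.96 and 5.33 (E11.5), 5.13, 4.79 and 4.64 (E13.5), 5.10, 7.39 and 4.70 (E15.5) and 9.84 and 9.63 (non-germ). It was detected in non-germ cells and, among germ cells, on E15.5 replicate 2 alone. Its level was at least 11.9-fold lower in E13.5 germ cells than in non-germ cells.

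In the Kcnq1ot1 domain, 8 of 10 genes were measured, of which 3 fell and none rose from E11.5 to E13.5 (7.94% and 10.8% of all genes), and 4 were lower in E13.5 germ cells than in non-germ cells (26.2% of all genes). Osbpl5, among these 4, passed the detection filter only with the non-germ arrays. Phlda2, which limits placental growth, had log2 levels of 11.19, 11.56 and 10.92 (E11.5), 7.91, 7.91 and 8.05 (E13.5), 8.33, 8.08 and 8.30 (E15.5) and 7.56 and 7.41 (non-germ). The E11.5 arrays were far above all others, and the fall by E13.5 passed (log2 difference -3.27 ± 0.18, adjusted p = 2.27e-06) with levels staying low at E15.5 (log2 difference -2.99 ± 0.18, adjusted p = 7.21e-07, against E11.5). Slc22a18, an organic cation transporter gene beside Phlda2, had log2 levels of 8.90, 9.45 and 8.73 (E11.5), 7.29, 6.36 and 6.68 (E13.5), 8.62, 8.39 and 8.51 (E15.5) and 6.64 and 6.92 (non-germ). It fell at E13.5 (log2 difference -2.25 ± 0.25, adjusted p = 0.000211) and rose at E15.5 (log2 difference 1.73 ± 0.25, adjusted p = 0.000385), each without overlap. A second, dimmer probe of Slc22a18 showed neither step, at a log2 difference of -0.20 ± 0.365 for the first and 0.37 for the second.

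Cdkn1c, the cyclin-dependent kinase inhibitor p57, had log2 levels of 9.40, 8.96 and 8.79 (E11.5), 9.92, 9.71 and 9.79 (E13.5), 9.23, 10.39 and 9.65 (E15.5) and 11.80 and 11.64 (non-germ). Non-germ cells were above every germ cell array (log2 difference -1.91 ± 0.30, adjusted p = 0.000343). Its difference between E15.5 and E11.5 was at the edge of the test (log2 difference 0.71 ± 0.27, adjusted p = 0.0489), with overlapping groups. That call held in 2 of the 11 fits that each left out 1 array, those without E11.5 replicate 1 and without E15.5 replicate 1, and without E15.5 replicate 2 it read log2 difference 0.39 ± 0.21, adjusted p = 0.147. Kcnq1ot1, the long RNA that silences the domain on the paternal copy, had log2 levels of 6.84, 7.33 and 7.37 (E11.5), 5.95, 6.40 and 6.16 (E13.5), 5.29, 6.19 and 5.56 (E15.5) and 8.40 and 7.81 (non-germ). It was lower at E15.5 than at E11.5 with no overlap (log2 difference -1.50 ± 0.27, adjusted p = 0.000824) and lower in germ cells than in non-germ cells (log2 difference -1.93 ± 0.30, adjusted p = 0.000286). Its fall from E11.5 to E13.5 passed (log2 difference -1.01 ± 0.27, adjusted p = 0.0237) but was lost without E11.5 replicate 2 or 3 or without E13.5 replicate 1 or 3, with adjusted p up to 0.09. Between E13.5 and E15.5 it did not pass with all arrays (-0.49 ± 0.27) and passed without E15.5 replicate 2 (adjusted p = 0.0316). Among the E15.5 arrays replicate 2 alone detected it, so the levels behind that call lie below the detection line and no size is given. All these values of Kcnq1ot1 come from 1 probe. A second named probe, the one annotated with a RefSeq transcript, was detected on 1 array and not kept. Its log2 group means were 6.19 (E11.5), 5.98 (E13.5), 5.44 (E15.5) and 5.54 (non-germ).

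Tssc4 and Cd81 lie on the far side of the domain. Log2 levels of Tssc4 were 8.14, 7.99 and 7.68 (E11.5), 7.34, 7.39 and 7.53 (E13.5), 6.86, 6.23 and 6.65 (E15.5) and 7.39 and 7.40 (non-germ). E15.5 was below the other 2 stages on every array, with a fall from E13.5 (log2 difference -0.84 ± 0.19, adjusted p = 0.00469) and from E11.5 (log2 difference -1.36 ± 0.19, adjusted p = 0.000161). A second, dimmer probe of Tssc4, for another transcript, passed neither test, at log2 differences of -0.12 (adjusted p = 0.711) and -0.43 (adjusted p = 0.155). Levels of Cd81, a tetraspanin of the cell surface, were 10.65, 10.76 and 10.62 (E11.5), 11.22, 11.22 and 10.97 (E13.5), 10.96, 12.49 and 10.88 (E15.5) and 12.96 and 13.15 (non-germ) on the log2 scale. Non-germ cells were the highest (log2 difference -1.92 ± 0.39, adjusted p = 0.00174), and E15.5 replicate 2 was the germ cell array nearest to them. Osbpl5, of the oxysterol-binding protein family, had log2 levels of 4.91, 4.77 and 4.76 (E11.5), 4.92, 5.08 and 5.21 (E13.5), 4.91, 5.94 and 4.98 (E15.5) and 7.76 and 7.49 (non-germ). It was detected on both non-germ arrays and on no E11.5 or E13.5 array, and was at least 2.75-fold lower in E13.5 germ cells. Nap1l4, a nucleosome assembly protein, ran from log2 levels of 11.99 to 12.53 over all 11 arrays and passed in no contrast.

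**Figure D4:**
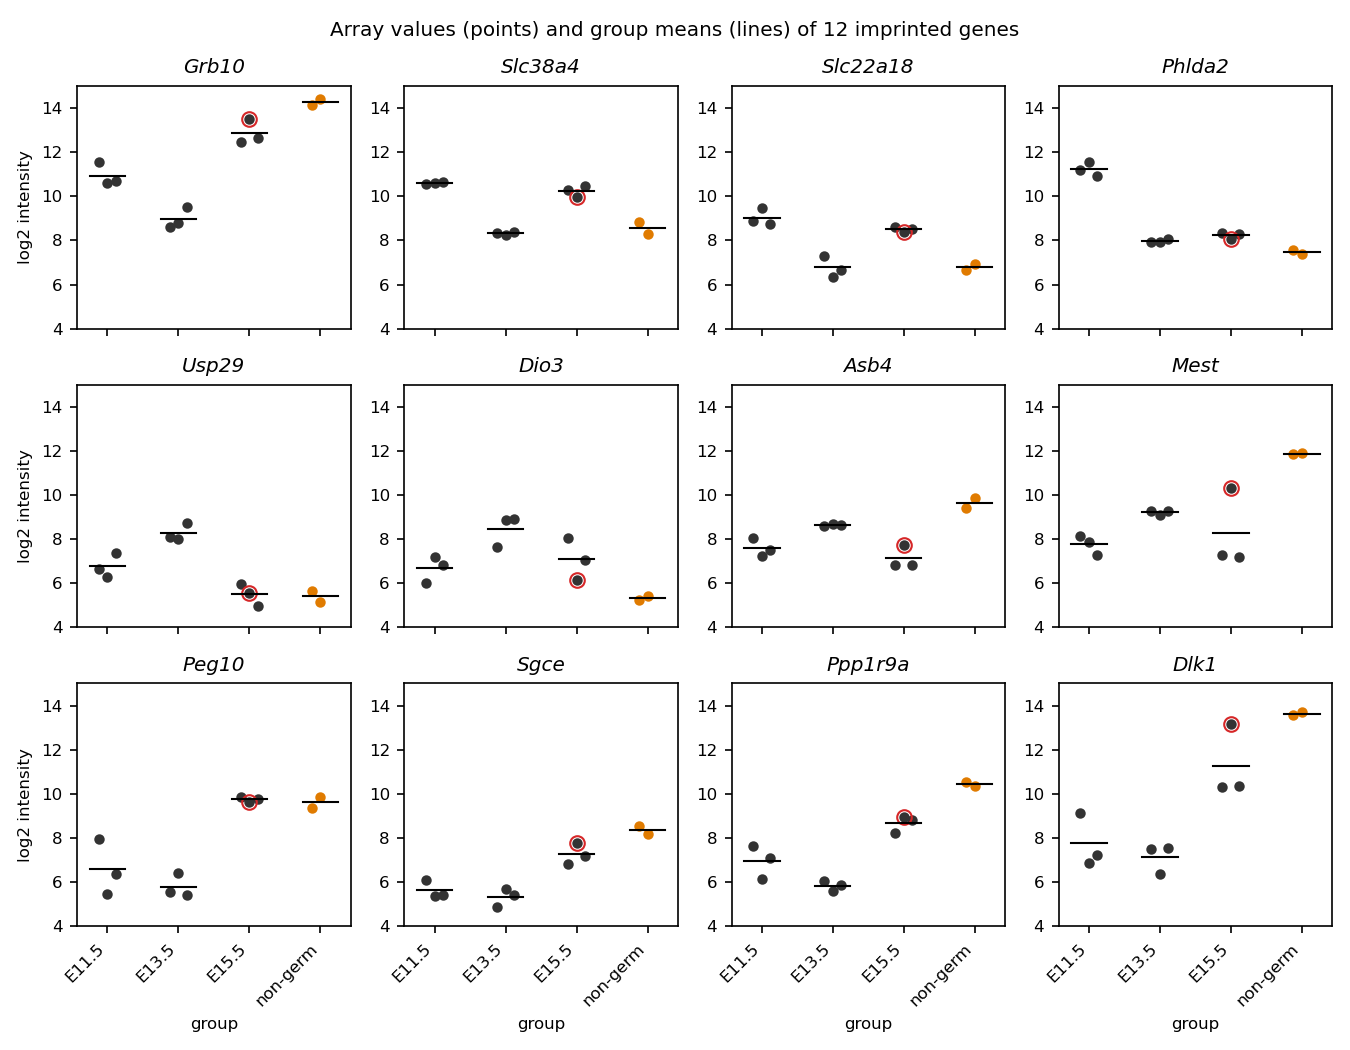
Log2 intensity (vertical axis) on each array (points) with the group mean (line) for 12 imprinted genes in germ cells at E11.5, E13.5 and E15.5 and in non-germ cells (orange), with a red ring around E15.5 replicate 2. Grb10, Slc38a4 and Slc22a18 dip at E13.5, Phlda2 stays low after E11.5, Usp29 peaks at E13.5, and the 3 E15.5 arrays of Peg10 lie together while those of Dlk1 and Mest do not.

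In the Dlk1-Dio3 domain, 4 of 5 measured genes, Rtl1, Meg3 and Rian among them, were lower in E13.5 germ cells than in non-germ cells (26.2% of all genes), and Dio3 was higher (30.8% of all genes). Rtl1, Meg3 and Rian passed the detection filter only with the non-germ arrays, where they were high. The count of lower genes in this domain is therefore a description. Dlk1, a paternally expressed transmembrane protein that holds back differentiation of fat cells, had log2 levels of 9.12, 6.88 and 7.24 (E11.5), 7.49, 6.37 and 7.54 (E13.5), 10.31, 13.18 and 10.34 (E15.5) and 13.58 and 13.70 (non-germ). All 3 E15.5 arrays were above all earlier ones, and E15.5 replicate 2 was close to the non-germ arrays. The rise from E13.5 passed with all arrays (log2 difference 4.15 ± 0.77, adjusted p = 0.00164) and without that array (log2 difference 3.22 ± 0.57, adjusted p = 0.00115). E13.5 germ cells were far below non-germ cells (log2 difference -6.51 ± 0.86, adjusted p = 0.000112). Dio3, the deiodinase that inactivates thyroid hormone, had log2 levels of 6.03, 7.20 and 6.85 (E11.5), 7.63, 8.87 and 8.92 (E13.5), 8.06, 6.16 and 7.06 (E15.5) and 5.23 and 5.42 (non-germ). It was not detected on either non-germ array and was at least 6.3-fold higher in E13.5 germ cells (adjusted p = 0.00067).

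The stage course of Dio3 was less firm. It rose from E11.5 to E13.5 with no overlap (log2 difference 1.78 ± 0.49, adjusted p = 0.0301), a call that was lost without E11.5 replicate 1 or 3 or E13.5 replicate 2 or 3, with adjusted p up to 0.112. Its fall to E15.5 passed with overlapping groups (log2 difference -1.38 ± 0.49, adjusted p = 0.044) and did not pass without E15.5 replicate 2 (log2 difference -0.92 ± 0.46, adjusted p = 0.127). That fall was also lost without E11.5 replicate 3, E13.5 replicate 2 or 3, E15.5 replicate 3 or either non-germ array.

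The long noncoding RNAs of this domain come from the maternal copy. Meg3 had log2 levels of 5.72, 6.06 and 5.60 (E11.5), 4.98, 5.06 and 5.59 (E13.5), 5.39, 6.56 and 5.36 (E15.5) and 8.24 and 7.84 (non-germ). It was detected in non-germ cells and among germ cells on E15.5 replicate 2 alone, and was at least 3.66-fold lower in E13.5 germ cells than in non-germ cells. Its 3 kept probes had the same sign in that contrast. Rian, a host of small nucleolar RNAs, had log2 levels of 4.90, 5.22 and 4.72 (E11.5), 4.66, 4.89 and 4.69 (E13.5), 6.06, 6.33 and 5.44 (E15.5) and 8.21 and 8.75 (non-germ). The E15.5 arrays were above all earlier germ cell arrays, and the rise from E13.5 passed with all arrays (log2 difference 1.20 ± 0.24, adjusted p = 0.00281) and without replicate 2 (log2 difference 0.98 ± 0.24, adjusted p = 0.00707). Among the E15.5 arrays replicate 2 alone detected it, so the rise without replicate 2 lies below the detection line and no fold is given. Against non-germ cells Rian was at least 4.98-fold lower at E13.5. Rtl1, a retrotransposon-derived gene needed in the placenta, had log2 levels of 5.28, 5.50 and 5.46 (E11.5), 5.06, 5.39 and 5.10 (E13.5), 4.90, 5.62 and 5.06 (E15.5) and 7.89 and 6.97 (non-germ), detected in non-germ cells alone, and was at least 2.4-fold lower in E13.5 germ cells.

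Peg3 and Usp29, whose shared promoter stretch is printed above, differed between the fractions in opposite directions. Peg3, a paternally expressed zinc finger protein, had log2 levels of 9.14, 9.54 and 9.30 (E11.5), 8.89, 8.51 and 8.59 (E13.5), 7.44, 9.06 and 7.05 (E15.5) and 10.85 and 10.85 (non-germ). Non-germ cells were above every germ cell array (log2 difference -2.19 ± 0.46, adjusted p = 0.00209), and within germ cells the level was lower at E15.5 than at E11.5 (log2 difference -1.48 ± 0.41, adjusted p = 0.0117). E15.5 replicate 2 was well above its neighbours, and without it the fall from E13.5 to E15.5 passed (log2 difference -1.44 ± 0.19, adjusted p = 0.000203), as did the smaller one from E11.5 to E13.5 (log2 difference -0.67 ± 0.17, adjusted p = 0.0187). With all arrays these differences were -0.82 ± 0.41 and -0.66 ± 0.41 and did not pass. All 3 kept probes of Peg3 had negative differences in the 4 contrasts.

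Usp29, a ubiquitin-specific peptidase, had log2 levels of 6.67, 6.30 and 7.37 (E11.5), 8.12, 8.03 and 8.74 (E13.5), 5.99, 5.58 and 4.96 (E15.5) and 5.64 and 5.18 (non-germ). The E13.5 arrays were above all others with no overlap, and neither the E15.5 nor the non-germ arrays detected it. It rose from E11.5 to E13.5 (log2 difference 1.51 ± 0.33, adjusted p = 0.0101), was at least 4.97-fold lower at E15.5 than at E13.5 (adjusted p = 0.000108) and was at least 5.56-fold higher in E13.5 germ cells than in non-germ cells (adjusted p = 9.56e-05). Without E15.5 replicate 2, the fall passed too (adjusted p = 0.000183). A second probe of the same transcript rose at E13.5 by a log2 difference of 1.05 ± 0.25, while another probe, for a different transcript, did not pass (-0.29 ± 0.22). Neither of these 2 probes passed between the fractions (log2 differences of 0.35 and 0.29). Zim1, a maternally expressed zinc finger gene of the same domain, had log2 levels of 7.38, 6.75 and 6.48 (E11.5), 5.93, 6.08 and 6.17 (E13.5), 6.64, 9.002 and 6.50 (E15.5) and 10.67 and 10.41 (non-germ). It was much lower in E13.5 germ cells than in non-germ cells (log2 difference -4.48 ± 0.61, adjusted p = 0.000128), and E15.5 replicate 2 stood between the other germ cell arrays and the non-germ arrays.

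In the Peg10 domain, 3 of 4 genes rose from E13.5 to E15.5 (21.2% of all genes) and 1 fell (21.4% of all genes), and all 4 were lower in E13.5 germ cells than in non-germ cells (26.2% of all genes). Peg10, a paternally expressed, retrotransposon-derived gene of placental development, had log2 levels of 7.97, 5.46 and 6.35 (E11.5), 5.54, 6.43 and 5.40 (E13.5), 9.84, 9.64 and 9.76 (E15.5) and 9.36 and 9.86 (non-germ). The 3 E15.5 arrays lay close together, E15.5 replicate 2 included, and overlapped the non-germ arrays, while E11.5 and E13.5 arrays were lower, with detection on 2 and 1 of 3 arrays. The rise from E13.5 passed with all arrays (log2 difference 3.95 ± 0.52, adjusted p = 0.000186) and without replicate 2 (log2 difference 4.03 ± 0.58, adjusted p = 0.000315), and at E13.5 the gene was lower in germ cells than in non-germ cells (log2 difference -3.82 ± 0.58, adjusted p = 0.000263). A second, dimmer probe for another Peg10 transcript was flat, with group means of 5.60, 5.86, 5.75 and 5.78 on the log2 scale.

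Sgce, the epsilon-sarcoglycan gene beside Peg10, had log2 levels of 6.08, 5.38 and 5.40 (E11.5), 4.87, 5.69 and 5.40 (E13.5), 6.83, 7.78 and 7.20 (E15.5) and 8.54 and 8.17 (non-germ). It was not detected before E15.5, was detected on all 3 E15.5 arrays and was at least 2.15-fold higher there than at E13.5 (adjusted p = 0.00049, and 0.000815 without replicate 2). Against non-germ cells it was at least 4.56-fold lower at E13.5 (adjusted p = 3.48e-05). Ppp1r9a, the actin-binding neurabin, had log2 levels of 7.65, 6.12 and 7.10 (E11.5), 6.04, 5.61 and 5.87 (E13.5), 8.21, 8.96 and 8.82 (E15.5) and 10.52 and 10.37 (non-germ). Every E15.5 array was above every earlier one, at least 5.64-fold higher than at E13.5 (adjusted p = 0.000115, and 0.000244 without replicate 2). Non-germ cells were above all germ cell arrays, at least 19.4-fold above E13.5 (adjusted p = 6.21e-06). Its smaller fall from E11.5 to E13.5 (at least 1.73-fold, adjusted p = 0.0445) was kept in just 3 of the 11 fits that left out 1 array, those without E11.5 replicate 2, E15.5 replicate 1 or E15.5 replicate 2, and a dimmer probe did not show it (log2 difference -0.16, adjusted p = 0.75).

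Asb4, an ankyrin repeat and SOCS box protein, was the gene that fell at E15.5. Its log2 levels were 8.04, 7.24 and 7.51 (E11.5), 8.58, 8.70 and 8.65 (E13.5), 6.81, 7.73 and 6.84 (E15.5) and 9.40 and 9.86 (non-germ). The E13.5 arrays were above all other germ cell arrays, and the fall from E13.5 to E15.5 passed with all arrays (log2 difference -1.51 ± 0.28, adjusted p = 0.00152) and without replicate 2 (log2 difference -1.84 ± 0.24, adjusted p = 0.00015). Its rise from E11.5 to E13.5 passed (log2 difference 1.05 ± 0.28, adjusted p = 0.0253) but was lost without E11.5 replicate 2 or 3 or any 1 of the E13.5 arrays, with adjusted p up to 0.093. At E13.5 it was lower in germ cells than in non-germ cells (log2 difference -0.98 ± 0.31, adjusted p = 0.0194), a call lost without non-germ replicate 2 (adjusted p = 0.151).

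Mest and Copg2, neighbours transcribed towards each other, lay on opposite sides of the fraction contrast. Mest, a paternally expressed gene of the hydrolase fold, had log2 levels of 8.16, 7.89 and 7.29 (E11.5), 9.30, 9.08 and 9.29 (E13.5), 7.27, 10.32 and 7.19 (E15.5) and 11.86 and 11.89 (non-germ). Non-germ cells were highest (log2 difference -2.65 ± 0.75, adjusted p = 0.011), a call that was lost when either non-germ array was left out, with adjusted p up to 0.0569. E15.5 replicate 2 was far above its neighbours. Without it, Mest rose from E11.5 to E13.5 (log2 difference 1.46 ± 0.21, adjusted p = 0.000625) and fell to E15.5 (log2 difference -2.02 ± 0.23, adjusted p = 8.13e-05), whereas with all arrays neither step passed (1.44 ± 0.67 and -0.96 ± 0.67). All 3 probes of Mest had the same sign in each of the 4 contrasts.

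Copg2, a coat protein of Golgi vesicles expressed from the maternal copy, had log2 levels of 6.98, 7.24 and 7.08 (E11.5), 8.26, 7.49 and 7.91 (E13.5), 7.76, 7.14 and 7.69 (E15.5) and 6.37 and 6.30 (non-germ). Every germ cell array was above both non-germ arrays, and the E13.5 difference passed (log2 difference 1.55 ± 0.25, adjusted p = 0.000399). Its rise from E11.5 to E13.5 passed (log2 difference 0.79 ± 0.22, adjusted p = 0.0332) but was lost without any 1 of the E11.5 arrays or without E13.5 replicate 1 or 3, with adjusted p up to 0.12.

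In the Snrpn domain, best known for its human counterpart in the Prader-Willi and Angelman syndromes, 1 of 4 measured genes passed a test at its brightest probe. Ndn, the MAGE family protein necdin, had log2 levels of 9.99, 10.06 and 10.05 (E11.5), 10.03, 9.70 and 9.38 (E13.5), 9.87, 10.80 and 10.06 (E15.5) and 11.78 and 11.55 (non-germ). Both non-germ arrays were above all germ cell arrays (log2 difference -1.96 ± 0.27, adjusted p = 0.00015), and no germ cell contrast passed. Magel2, of the same protein family, ran from 5.46 to 7.22 on the log2 scale over all arrays. Mkrn3, a ring finger protein that in humans delays puberty, ran from 9.20 to 9.99, and the ubiquitin ligase Ube3a from 8.60 to 9.18. At their brightest probes these 3 passed in none of the 4 contrasts, as did Nap1l4 of the Kcnq1ot1 domain. Both dimmer probes of Ube3a fell from E13.5 to E15.5, by log2 differences of -1.14 (adjusted p = 0.00275) and -0.81 (adjusted p = 0.0341). The first of them, detected on 4 of the 11 arrays, was also lower at E15.5 than at E11.5 (log2 difference -0.97, adjusted p = 0.00496) and in E13.5 germ cells than in non-germ cells (log2 difference -0.75, adjusted p = 0.0293).

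Among imprinted genes outside the larger clusters, Slc38a4 and Mcts2 changed with stage, and Rasgrf1 was detected at E15.5 alone. Slc38a4, a paternally expressed amino acid transporter, had log2 levels of 10.56, 10.61 and 10.65 (E11.5), 8.33, 8.25 and 8.38 (E13.5), 10.27, 9.99 and 10.48 (E15.5) and 8.82 and 8.28 (non-germ). The arrays of each stage lay close together, and the level fell at E13.5 (log2 difference -2.29 ± 0.18, adjusted p = 2.29e-05) and rose at E15.5 (log2 difference 1.92 ± 0.18, adjusted p = 2.44e-05). At E13.5 the germ and non-germ levels did not differ past the test (log2 difference -0.23 ± 0.20, adjusted p = 0.359). Rasgrf1, a Ras exchange factor whose control region is methylated in the male germ line, had log2 levels of 5.05, 5.04 and 4.88 (E11.5), 4.85, 4.68 and 4.73 (E13.5), 6.14, 6.06 and 6.81 (E15.5) and 4.92 and 4.99 (non-germ). It was detected on 2 of the 3 E15.5 arrays and on no other array, and its E15.5 mean was at least 1.13-fold higher than at E13.5, a value given without a test because detection at E15.5 is what let the gene through the filter. Mcts2, a retrogene inside an intron of H13, had log2 levels of 7.03, 6.69 and 6.75 (E11.5), 6.99, 7.48 and 7.66 (E13.5), 5.88, 5.99 and 5.64 (E15.5) and 6.16 and 6.28 (non-germ). All E15.5 arrays were below all earlier ones, with a fall from E13.5 (log2 difference -1.54 ± 0.20, adjusted p = 0.000151) that also passed without replicate 2 (adjusted p = 0.000185). Among the E15.5 arrays replicate 2 alone detected Mcts2, so the size of that fall rests mostly on levels below the detection line. E13.5 germ cells were above non-germ cells (log2 difference 1.16 ± 0.22, adjusted p = 0.00107).

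With all arrays and at their brightest probes, Gnas, Impact and Nnat differed between the fractions and passed in no germ cell contrast. Gnas, which encodes the stimulatory G protein alpha subunit and further transcripts of either copy, had log2 levels of 9.41, 9.63 and 9.89 (E11.5), 9.08, 8.92 and 9.19 (E13.5), 8.37, 10.94 and 7.62 (E15.5) and 11.89 and 12.13 (non-germ) at its brightest probe. Non-germ cells were highest (log2 difference -2.95 ± 0.71, adjusted p = 0.00485), and E15.5 replicate 2 was far above its neighbours. Without that array Gnas fell from E13.5 to E15.5 (log2 difference -1.08 ± 0.24, adjusted p = 0.00396), where the difference with all arrays was -0.09 ± 0.64 and did not pass. Of the 6 kept probes of Gnas, 5 were lower in E13.5 germ cells than in non-germ cells, by log2 differences from -2.36 to -4.02, and 1 did not pass (-0.62, adjusted p = 0.0828). The latter probe fell from E13.5 to E15.5 with all arrays (log2 difference -1.28, adjusted p = 0.00224). It was also lower at E15.5 than at E11.5 (log2 difference -2.05, adjusted p = 6.61e-05). At the brightest probe of Gnas that difference passed without E15.5 replicate 2 (log2 difference -1.66 ± 0.24, adjusted p = 0.000187). Impact, a regulator of translation under amino acid shortage, had log2 levels of 9.53, 9.20 and 9.17 (E11.5), 9.24, 8.97 and 8.48 (E13.5), 7.90, 9.37 and 8.33 (E15.5) and 10.06 and 9.94 (non-germ). It was lower in E13.5 germ cells than in non-germ cells (log2 difference -1.10 ± 0.37, adjusted p = 0.0263), a call lost without E13.5 replicate 2 or 3 or without either non-germ array, with adjusted p up to 0.117, and a dimmer probe did not pass (log2 difference -0.82, adjusted p = 0.177). Without E15.5 replicate 2 Impact fell from E13.5 to E15.5 (log2 difference -0.79 ± 0.24, adjusted p = 0.0216). Without that array it was also lower at E15.5 than at E11.5 (log2 difference -1.195 ± 0.24, adjusted p = 0.00177). The dimmer probe was lower over that span with all arrays (log2 difference -1.94, adjusted p = 0.00345).

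Nnat, the small membrane protein neuronatin, had log2 levels of 4.85, 5.45 and 4.80 (E11.5), 4.90, 4.97 and 5.03 (E13.5), 5.21, 5.58 and 5.30 (E15.5) and 7.94 and 8.10 (non-germ). It was detected in non-germ cells alone and was at least 3.62-fold lower in E13.5 germ cells, with 3 probes of the same sign. Inpp5f, an inositol phosphatase, ran from log2 levels of 9.99 to 11.16 and was higher in E13.5 germ cells than in non-germ cells (log2 difference 0.94 ± 0.16, adjusted p = 0.000624), which a dimmer probe did not show (log2 difference 0.41, adjusted p = 0.379). Its small rise from E11.5 to E13.5 (log2 difference 0.47 ± 0.15, adjusted p = 0.0491) was kept in 2 of the 11 fits that left out 1 array, those without E15.5 replicate 1 or 2. The difference from E11.5 to E15.5 (log2 difference 0.41 ± 0.15, adjusted p = 0.0378) was kept in 4, those without E13.5 replicate 1, E15.5 replicate 2 or either non-germ array. Commd1, a copper metabolism protein and host of the imprinted retrogene Zrsr1, ran from 9.32 to 10.07 on the log2 scale and was slightly higher in E13.5 germ cells (log2 difference 0.62 ± 0.16, adjusted p = 0.00779).

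Over the 18 genes with more than 1 kept probe, no contrast had probes of 1 gene called in opposite directions. Of the called contrasts of these genes, the probes had 1 sign in 31 and differed in sign in 4. In 19 of these 35, at least 1 kept probe did not pass. The probes of a gene were each tested on their own for this.

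Of 26 listed regulators of imprints and of DNA methylation, 20 were measured. From E11.5 to E13.5, 7 rose and 1 fell (10.8% and 7.94% of all genes). From E13.5 to E15.5, 5 rose and 6 fell (21.2% and 21.4% of all genes), or 6 and 6 without E15.5 replicate 2. Between the fractions, 10 were higher and 2 lower in E13.5 germ cells (30.8% and 26.2% of all genes), with a median log2 difference of 0.67 against 0.12 over all genes. Dnmt3l, the cofactor of de novo DNA methylation, had log2 levels of 4.91, 4.59 and 4.77 (E11.5), 7.15, 5.91 and 5.19 (E13.5), 11.93, 11.71 and 12.21 (E15.5) and 4.76 and 4.68 (non-germ). Every E15.5 array was far above every earlier one (fitted log2 difference from E13.5 of 5.87 ± 0.39, and 6.01 ± 0.424 without replicate 2). Beyond the E15.5 arrays, just 1 of 3 E13.5 arrays detected Dnmt3l, so it passed the detection filter only with the E15.5 arrays. Its rise is therefore a description, and the fitted size rests partly on levels below the detection line. Dnmt3a, a de novo methyltransferase, had log2 levels of 7.53, 7.29 and 8.01 (E11.5), 7.12, 7.47 and 7.75 (E13.5), 9.38, 10.39 and 9.86 (E15.5) and 11.21 and 10.84 (non-germ). It rose at E15.5 (log2 difference 2.43 ± 0.29, adjusted p = 9.64e-05, and 2.19 ± 0.269 without replicate 2) and was lower in E13.5 germ cells than in non-germ cells (log2 difference -3.58 ± 0.32, adjusted p = 9.44e-06). Tet1, which oxidizes methylated cytosine, had log2 levels of 8.98, 8.51 and 8.86 (E11.5), 9.75, 9.30 and 9.55 (E13.5), 6.67, 5.67 and 6.89 (E15.5) and 6.75 and 6.50 (non-germ), higher at E13.5 than on any E15.5 array (log2 difference -3.12 ± 0.29, adjusted p = 2.34e-05, and -2.78 ± 0.203 without replicate 2). Dnmt3b (1.58 ± 0.13) and the histone demethylase Kdm1b (1.59 ± 0.20) rose from E11.5 to E13.5 on the log2 scale. Dppa3, also listed among the germ cell markers, was at least 119-fold higher in E13.5 germ cells than in non-germ cells (adjusted p = 3.65e-09).

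Of 22 other genes of the IGF axis, 17 were measured. From E11.5 to E13.5, 4 rose and 1 fell (10.8% and 7.94% of all genes). From E13.5 to E15.5, 3 rose and 2 fell (21.2% and 21.4% of all genes), or 3 and 3 without E15.5 replicate 2. Between the fractions, 2 were higher and 12 lower in E13.5 germ cells (30.8% and 26.2% of all genes), with a median log2 difference of -2.18 against 0.12 over all genes. Igf1r, the receptor of both IGFs, had log2 levels of 4.50, 4.57 and 4.49 (E11.5), 7.94, 7.42 and 7.92 (E13.5), 8.70, 9.03 and 8.51 (E15.5) and 10.52 and 10.51 (non-germ) and was at least 3.12-fold higher at E13.5 than at E11.5 (adjusted p = 2.81e-06). Igf1, the other IGF ligand, had log2 levels of 5.52, 4.93 and 5.09 (E11.5), 4.96, 5.08 and 5.13 (E13.5), 9.05, 8.94 and 9.23 (E15.5) and 6.98 and 6.91 (non-germ) and was at least 7.51-fold higher at E15.5 than at E13.5 (adjusted p = 3.09e-07, and 5.64e-07 without replicate 2), also above the non-germ arrays. The binding protein Igfbp2 had log2 levels of 6.78, 6.57 and 6.19 (E11.5), 5.72, 5.04 and 5.50 (E13.5), 8.44, 8.84 and 9.06 (E15.5) and 9.82 and 9.29 (non-germ) and was at least 6.13-fold higher at E15.5 than at E13.5 (adjusted p = 6.54e-06, and 1.22e-05 without replicate 2). Another binding protein, Igfbp4, was at least 22.9-fold lower in E13.5 germ cells than in non-germ cells. Beyond the non-germ arrays, E15.5 replicate 2 alone was above the detection line for Igfbp4. It thus passed the filter only with the non-germ arrays, and its difference is a description.

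Of 38 further genes reported as imprinted in mouse, 21 were measured, with 6 higher and 7 lower in E13.5 germ cells than in non-germ cells (30.8% and 26.2% of all genes) and a median log2 difference of -0.52 against 0.12 over all genes. From E11.5 to E13.5, 2 rose and 2 fell (10.8% and 7.94% of all genes). From E13.5 to E15.5, 5 rose and 4 fell (21.2% and 21.4% of all genes), or 4 and 5 without E15.5 replicate 2. These shares lie near those of all genes. Zfp64, a zinc finger gene, had log2 levels of 8.87, 8.54 and 8.81 (E11.5), 7.97, 8.14 and 8.02 (E13.5), 5.69, 5.96 and 6.43 (E15.5) and 6.26 and 6.84 (non-germ) and fell from E13.5 to E15.5 (log2 difference -2.02 ± 0.22, adjusted p = 5.94e-05, and -1.997 ± 0.245 without replicate 2). Gatm, an enzyme of creatine synthesis, had log2 levels of 5.35, 5.43 and 5.74 (E11.5), 5.33, 6.51 and 7.46 (E13.5), 7.95, 9.98 and 8.27 (E15.5) and 9.70 and 10.61 (non-germ) and rose over that interval (log2 difference 2.30 ± 0.58, adjusted p = 0.00915, and 1.69 ± 0.492, adjusted p = 0.0177, without replicate 2), with E15.5 replicate 2 the highest germ cell array. Dcn, the matrix protein decorin, was at least 29.8-fold lower in E13.5 germ cells than in non-germ cells. Beyond the non-germ arrays, E15.5 replicate 2 alone was above the detection line for Dcn. It thus passed the filter only with the non-germ arrays, and its difference is a description. The aminophospholipid transporter Atp10a was higher in germ cells (log2 difference 2.63 ± 0.22, adjusted p = 5.93e-06), with detection on 1 of 2 non-germ arrays, and Pde4d, a cyclic AMP phosphodiesterase, rose from E11.5 to E13.5 (log2 difference 1.89 ± 0.35, adjusted p = 0.0039).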

How the data were processed

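RNA of sorted gonadal cells was amplified, biotin-labelled and hybridized to 11 Illumina bead arrays of 45281 probes, per the labels' protocols. Per the file headers, the main deposited table gives the non-normalized signal intensity of each probe, on a linear scale, and next to it a detection p-value. In a second deposited table, the authors rescaled each array's intensity values linearly (medians of 315 to 342 per array, not centred), and this table served as an alternative. The method and software behind both tables are not given in the sources used here.

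The analysis used R 4.3.3 and limma 3.58.1. Background was corrected by neqc, which reads it off the detection p-values, with an offset of 16, followed by quantile scaling and log2. A probe was kept if 2 or more arrays had a detection p-value below 0.01 (21943 probes). The probe annotation named 1 gene for 34885 probes, several for 18 and none for 10378, and 3792 kept probes without a single gene were left out. Its brightest kept probe, by the mean over all arrays, stood for each gene, and a separate fit tested all kept probes one by one. A model with 4 group means was fitted to all arrays by lmFit and eBayes (7 residual and 3.54 prior degrees of freedom). Tests were two-sided, with Benjamini-Hochberg adjustment over 11598 genes and a threshold of 0.05, and the fit was tested on simulated data. For a gene that no array of a group detected, "at least" gives the fold against that group's lowest detected values, array by array. Between 14860 and 18657 probes were detected per array, and the number of arrays limits the precision.

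The members, the gene lists, the named genes and the alternatives were chosen with earlier results of these data known. Every listed gene is accounted for, and values on every array are given for the 32 genes called in at least 1 contrast with a difference of at least 1 on the log2 scale. From each other list, up to 3 genes with the largest called difference in a contrast are named, and of the marker genes Pou5f1, Ddx4, Sox9, Col3a1 and Hba-a1. Replicate numbers are shared between groups, but samples of the same number did not deviate together (correlations of -0.108 to 0.131), so no block entered the main model. Promoter sequences are those of RefSeq on GRCm38.p6, and the array files name no genome build.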

Additional observations from a re-analysis of the deposited data

How the results depend on the processing

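Each count of imprinted genes was recomputed without background correction, with cyclic loess, with array medians only, from the authors' rescaled table, with detection on at least 3 arrays, without a filter, with the mean of all kept probes, with only the groups compared, with the replicate number as a block, with a 2-fold change in addition and without each array in turn. No called difference turned its sign in any of these. The count of rises from E11.5 to E13.5 was 5 and became 3 with the replicate block and 3 with the 2-fold rule, and ran from 1 to 8 over the fits without 1 array, the highest without E15.5 replicate 2. The falls over that interval numbered 6 and ran from 4 to 10 without 1 array, and those from E13.5 to E15.5 numbered 5 and ran from 4 to 9, both highest without E15.5 replicate 2. Without 1 array, the other counts ran from 10 to 12 rises from E13.5 to E15.5, 7 to 9 higher and 6 to 9 lower from E11.5 to E15.5, and 6 to 7 higher and 20 to 23 lower in germ cells than in non-germ cells. Over the alternatives that kept all arrays, the same counts ran from 9 to 13, 6 to 10, 5 to 8, 4 to 7 and 21 to 25. The replicate block moved no other count by more than 1.5 times. Of the 70 called differences of single genes, 68 were called in the same direction without E15.5 replicate 2, where 16 further differences were called. Over the fits without 1 array, the number kept ran from 60, without E13.5 replicate 3, to 69, without E15.5 replicate 1. Scaling moved the whole distribution: with cyclic loess the median log2 difference of all genes between germ and non-germ cells went from 0.116 to -0.117 and the share of higher calls from 54% to 40.5%. Between E13.5 and E15.5 that median was 0.0154, 0.135 with cyclic loess and -0.124 with array medians only, with 49.7%, 60.8% and 39.5% of calls higher. A block for the slide was not run, since the columns name no slides. Probes near background carry no order below the detection line, which limits Rian, Rtl1, Nnat, Rasgrf1 and Osbpl5.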
